A study of Mus musculus with 4 samples.

Results

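Transcripts of the transforming growth factor beta (TGF-beta) and bone morphogenetic protein (BMP) pathway were measured in 4T1-S and 4T1-A, a pair of sub-lines of 4T1, a mammary carcinoma cell line of BALB/c mice. The set holds 10 genes, chosen by name: the ligands Tgfb1, Tgfb2, Tgfb3, Bmp4, Bmp7 and Inhba, the receptors Tgfbr1 and Tgfbr2, and the pathway targets Smad7 and Id1. The choice was made with earlier results of these data known. They were covered by 15 of the 41174 probes and 42 of the 43379 non-control spots on each one-colour Agilent array, 2 arrays per sub-line. Nothing in the labels tells 4T1-S from 4T1-A beyond its name and the title of the series, which calls 4T1-S highly immunogenic. No treatment, culture condition or cell passage is given for either sub-line, and the labels do not say if replicate arrays hold RNA of separate cultures. The p-values therefore cover the spread among these 4 arrays and nothing more, and that spread may be technical. All 4 arrays lay on 1 slide, with each sub-line on adjacent positions, so slide position and sub-line cannot be told apart.

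Ligands of this family are secreted dimers. A TGF-beta dimer binds the type II receptor Tgfbr2, which recruits and phosphorylates the type I receptor Tgfbr1, and the active kinase then phosphorylates Smad2 and Smad3. BMPs bind a related set of receptors and signal through Smad1 and Smad5. Smad7, an inhibitory Smad, is induced by the pathway and feeds back on the receptors, and Id1, an inhibitor of basic helix-loop-helix transcription factors, is a classic BMP target. In mammary epithelium TGF-beta restrains growth, while in carcinomas it is known for promoting invasion and for suppressing lymphocytes.

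Between 54.9 and 59.2 percent of the spots on each array were well above background. All 8 mammary epithelial markers examined, among them the keratins Krt8 and Krt18, were well above background on all arrays, and none of the 5 endothelial markers reached the test. The leukocyte markers Ptprc, Itgam and Adgre1 were not tested either, since none cleared the background on the arrays of either sub-line together. Levels are given as the processed intensity of the probe divided by the 75th percentile of its array, so that a level of 1 equals that percentile. They can be compared between arrays for a probe, but not between probes. Each difference is the mean log2 level in 4T1-S less that in 4T1-A (n = 2 arrays per sub-line), followed by its standard error (SE) from limma. Benjamini-Hochberg adjustment ran over all 23669 probes tested, and an adjusted p under 0.05 counted as passing.

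Of the 10 genes, 2 differed between the sub-lines: Tgfb2, which encodes the TGF-beta 2 ligand, was 3.97-fold higher in 4T1-S, and Bmp7, which encodes a BMP ligand, was 4.10-fold lower by 1 probe and 3.88-fold lower by another. Both directions held when arrays were scaled to the median, by quantiles or by cyclic loess. Of the 15 probes, 14 were bright enough to be tested, and of these 1 was higher, 2 were lower and 11 did not pass. Over all probes tested, 4.58 percent passed, 2.21 percent (523) higher and 2.37 percent (562) lower, and scaling to the median turned that split to 224 and 1162. The median difference was -0.05 over the 14 member probes and 0.11 over all probes tested, and scaling to the median moved that of all probes to -0.18. The arrays of the sub-lines did not overlap for 8 of the 14 tested probes, which is close to the 56.5 percent of all probes tested for which they did not overlap. The smallest difference that passed among all probes was 0.85 in size, and the SE of the member probes that did not pass lay between 0.19 and 0.40.

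**Figure D1:**
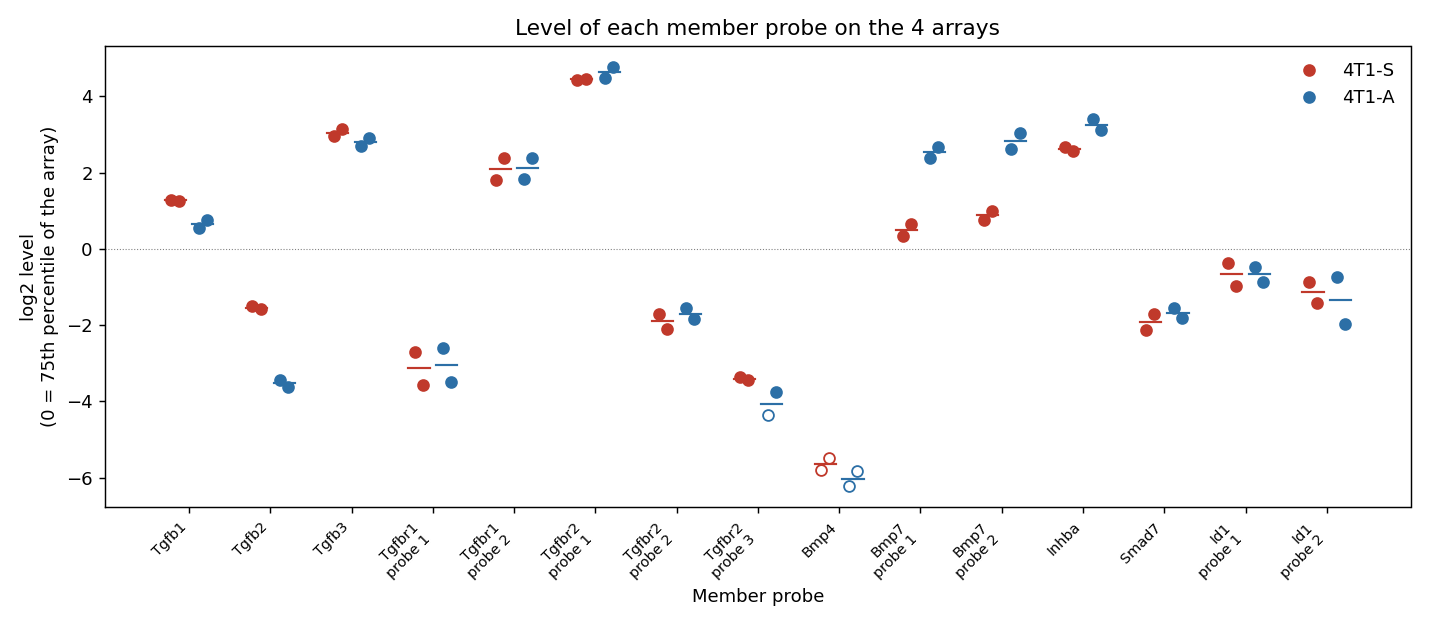
Log2 level of each of the 15 member probes relative to the 75th percentile of the array, for the 2 arrays of 4T1-S (red, left) and of 4T1-A (blue, right), with open points where the probe was not well above background and a bar at the mean. Probes of a gene are numbered in the order of their IDs. Tgfb2 and both Bmp7 probes show the widest gaps between sub-lines, and Bmp4 is open on all 4 arrays.

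Tgfb2 was covered by 1 probe. Its level was 0.351 and 0.338 in 4T1-S, against 0.0918 and 0.0820 in 4T1-A. Both 4T1-S arrays lay far above both 4T1-A arrays, and replicate arrays differed little. The difference was 1.99 ± 0.19 (95% interval 1.54 to 2.43), with adjusted p = 0.00137 by limma. The 4T1-A levels were close to the lowest levels well above background on those arrays, 0.0511 and 0.0488, and with normexp background correction, which draws dim signals together, the difference was 1.22 and still passed (adjusted p = 0.0148). Tgfb2 passed under each of the 16 alternatives tried, with differences between 1.22 and 2.07.

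The promoter of Tgfb2 is shown because it is the TGF-beta ligand that rose, and that of Tgfb1 for comparison, as a paralogue whose difference did not pass. Each is the RefSeq window of 300 bases around the annotated start, on the strand of the gene in build GRCm38.p6, at chr1:186705940-186706239 on the minus strand for Tgfb2 and chr7:25686752-25687051 on the plus strand for Tgfb1. Capitals mark every match on either strand to a TATA motif (TATAA), an E-box (CACGTG), a short form of the cyclic AMP response element (CGTCA), a GC box (GGGCGG) and a CAGA box (CAGAC), a short sequence that Smad3 and Smad4 bind.
Tgfb2: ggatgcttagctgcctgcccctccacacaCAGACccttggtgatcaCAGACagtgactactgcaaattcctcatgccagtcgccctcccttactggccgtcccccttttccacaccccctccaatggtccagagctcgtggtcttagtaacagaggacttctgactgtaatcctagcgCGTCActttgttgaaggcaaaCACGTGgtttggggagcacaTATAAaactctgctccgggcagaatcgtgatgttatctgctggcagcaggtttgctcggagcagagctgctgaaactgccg
Tgfb1: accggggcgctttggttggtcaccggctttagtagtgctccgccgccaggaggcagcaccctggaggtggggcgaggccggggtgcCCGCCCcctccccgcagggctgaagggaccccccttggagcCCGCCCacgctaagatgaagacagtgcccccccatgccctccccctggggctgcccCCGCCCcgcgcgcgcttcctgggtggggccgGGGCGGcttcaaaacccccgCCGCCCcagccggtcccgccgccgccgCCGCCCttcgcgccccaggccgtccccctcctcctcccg
In the Tgfb2 window the TATA motif began at position -31, the E-box at -51 and CGTCA at -72, counted from the start base as 0, and CAGAC occurred 2 times. The Tgfb1 window held 6 GC boxes and no match to the other motifs, and its GC content was 77 percent against 54.3 percent for Tgfb2. The matches do not overlap. Of all 32851 promoter windows, 24.9 percent hold TATAA, 7.15 percent CACGTG, 20.8 percent CGTCA, 35.7 percent GGGCGG and 49.6 percent CAGAC. The arrays measured no binding or chromatin mark at these windows.

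Tgfb1 encodes the most widely expressed of the TGF-beta ligands, and its probe was printed in 10 spots per array. Its level was 2.43 and 2.39 in 4T1-S, against 1.45 and 1.70 in 4T1-A. The sub-lines did not overlap, and even the lowest spot in 4T1-S, at 1.91, lay just above the highest spot in 4T1-A, at 1.90. Repeated spots are technical and enter the test as 1 mean per array. The difference of 0.62 ± 0.19 (95% interval 0.16 to 1.07) did not pass the adjustment over all probes (adjusted p = 0.113 by limma, unadjusted p = 0.0146).

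Tgfb3, the third TGF-beta ligand, had levels of 7.74 and 8.83 in 4T1-S and of 6.48 and 7.47 in 4T1-A. The 4T1-S arrays lay above the 4T1-A arrays by less than the spread between replicates allows to be called, with a difference of 0.25 ± 0.20 (95% interval -0.22 to 0.71, adjusted p = 0.471 by limma). With scaling to the median its sign turned, at -0.04. The 3 TGF-beta ligands thus differed by 0.62, 1.99 and 0.25, in the order Tgfb1, Tgfb2 and Tgfb3, and only Tgfb2 passed.

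Bmp7 encodes a BMP known for its part in kidney and bone development and for opposing TGF-beta in epithelial cells. Its first probe (A_51_P492366) was printed in 10 spots and gave levels of 1.26 and 1.58 in 4T1-S, against 5.26 and 6.38 in 4T1-A. The second (A_52_P278354) gave 1.69 and 2.0 in 4T1-S, against 6.16 and 8.24 in 4T1-A. All 4T1-S arrays lay below all 4T1-A arrays with both probes, and the highest 4T1-S spot of the first probe, at 1.82, was below its lowest 4T1-A spot, at 3.87. The differences were -2.04 ± 0.22 (95% interval -2.54 to -1.53, adjusted p = 0.00225 by limma) and -1.96 ± 0.22 (-2.48 to -1.43, adjusted p = 0.00321). The second probe lost its call when probes of all intensities were tested (adjusted p = 0.0526), where 41152 probes entered the adjustment, and the first kept its call there (adjusted p = 0.0442).

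**Figure D2:**
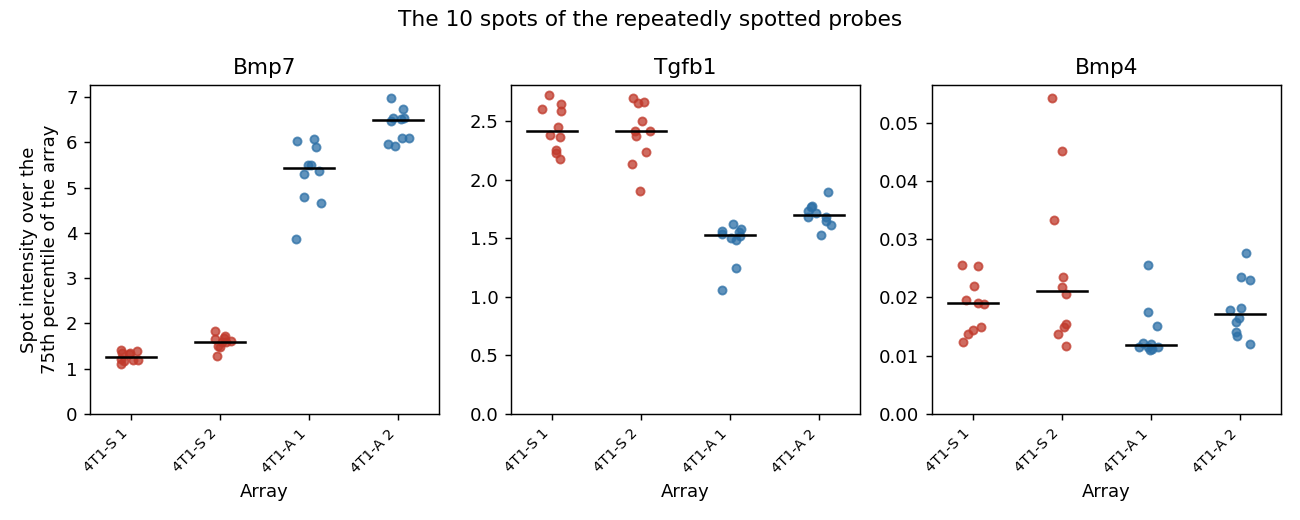
Intensity of each of the 10 spots, over the 75th percentile of the array, of the probes for Bmp7, Tgfb1 and Bmp4 that were printed repeatedly, on the arrays of 4T1-S (red, left) and 4T1-A (blue, right), with a bar at the median and linear axes from 0. Spots of Bmp7 and Tgfb1 separate by sub-line, from 1.09 to 1.82 against 3.87 to 6.98 for Bmp7, while none of the Bmp4 spots was well above background.

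Bmp4, a BMP ligand of mesoderm and mammary bud development, was not well above background in any of its 10 spots on any array. Median spot levels were 0.0190 and 0.0212 in 4T1-S and 0.0118 and 0.0171 in 4T1-A, all below the lowest level well above background, which ranged from 0.0488 to 0.0596. No fold is given and the gene was not tested.

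Inhba encodes the beta A chain of activin and inhibin, and activin A signals through Smad2 and Smad3 as TGF-beta does. Its level was 6.36 and 5.89 in 4T1-S, against 10.5 and 8.60 in 4T1-A. The sub-lines did not overlap, and the difference of -0.63 ± 0.20 (95% interval -1.11 to -0.16) did not pass (adjusted p = 0.114 by limma). With scaling to the median, where it was -0.92, it passed (adjusted p = 0.0417).

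No difference was called for either receptor. The brightest probe for Tgfbr2, the type II receptor that binds TGF-beta directly, had levels of 21.6 and 21.8 in 4T1-S and of 22.5 and 27.3 in 4T1-A, with a difference of -0.19 ± 0.20 (95% interval -0.65 to 0.28, adjusted p = 0.597 by limma). A second probe gave 0.309 and 0.235 in 4T1-S and 0.342 and 0.277 in 4T1-A, and its difference was also -0.19 (95% interval -0.72 to 0.33). The third and dimmest probe, A_52_P3811, went the other way. It gave 0.0984 and 0.0915 in 4T1-S, against 0.0488 and 0.0740 in 4T1-A, where 4T1-A replicate 1 was not well above background, so that its 4T1-S arrays were what brought it into the test. Its difference of 0.66 ± 0.24 did not pass (adjusted p = 0.150). Without 4T1-A replicate 2 the adjusted p was 0.0361, in a fit whose one 4T1-A value was not well above background.

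Tgfbr1, the type I receptor kinase, was covered by 2 probes that varied more between the arrays of a sub-line than between the sub-lines. Probe A_52_P4538 gave 3.51 and 5.20 in replicates 1 and 2 of 4T1-S and 3.57 and 5.23 in replicates 1 and 2 of 4T1-A. Probe A_51_P280137 gave the reverse order, 0.155 and 0.0849 in 4T1-S and 0.165 and 0.0892 in 4T1-A. The differences were -0.02 ± 0.28 (95% interval -0.66 to 0.63) and -0.08 ± 0.37 (-0.95 to 0.78). The sign of both turned when single arrays were left out.

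**Figure D3:**
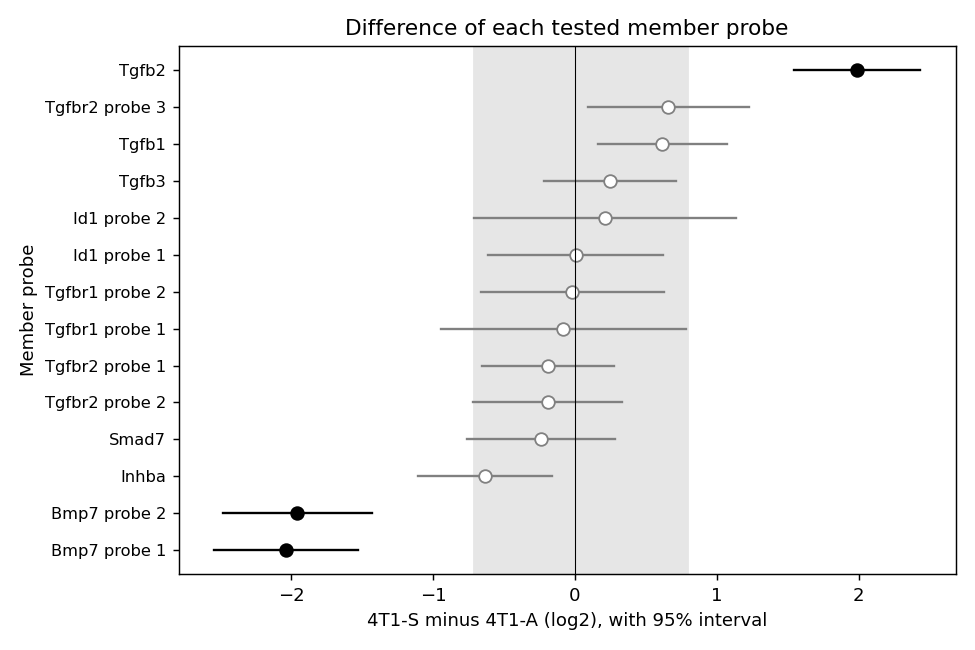
Difference between 4T1-S and 4T1-A (log2) of the 14 tested member probes with its 95% interval from limma, filled where the adjusted p was under 0.05. The grey band spans the 5th to the 95th percentile of all probes tested, -0.71 to 0.80, and Tgfb2 and both Bmp7 probes lie outside it.

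No difference was called for the targets Smad7 and Id1 either. Smad7 had levels of 0.229 and 0.305 in 4T1-S and of 0.340 and 0.287 in 4T1-A. The sub-lines overlapped, with a difference of -0.24 ± 0.22 (95% interval -0.76 to 0.28, adjusted p = 0.538 by limma). The brighter Id1 probe had levels of 0.778 and 0.511 in 4T1-S and of 0.721 and 0.548 in 4T1-A, a difference of 0.01 ± 0.26 (95% interval -0.61 to 0.62), and its sign turned with scaling to the median (-0.29) and cyclic loess (-0.04). The other Id1 probe gave 0.548 and 0.374 in 4T1-S and 0.601 and 0.255 in 4T1-A, with a difference of 0.21 ± 0.40 (95% interval -0.71 to 1.13) whose sign also turned with scaling to the median (-0.08). With each probe the range of one sub-line lay within that of the other.

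Some markers of epithelial cells and fibroblasts also differed between the same arrays. Of all genes tested by their brightest probe, 2.56 percent were lower and 2.46 percent higher. Of the 8 epithelial markers, 4 were lower in 4T1-S. They were Epcam, an epithelial adhesion molecule (-3.78), the keratins Krt19 (-2.61) and Krt14 (-2.06), and the E-cadherin gene Cdh1 (-1.11). The keratins Krt8 (-0.19), Krt18 (-0.14), Krt7 (-0.20) and Krt5 (0.52) did not pass. Of the 8 fibroblast markers, 4 were tested and 1 was higher, Col1a1, a chain of type I collagen. Its mean in 4T1-S was 2.59-fold above the lowest level well above background on the 4T1-A arrays. Col1a1 was well above background on the 4T1-S arrays only and entered the test through them alone. Col1a2 (0.53), Col3a1 (0.59) and Pdgfra (0.89) did not pass. The fibroblast markers Pdgfrb, Thy1 and Lum had no probe bright enough for the test, nor was the brightest Dcn probe, while a second Dcn probe was tested and did not pass (0.79 ± 0.19, adjusted p = 0.0627 by limma). Of the 7 leukocyte markers, 4 were tested and none was called. The part of these markers in the results for Tgfb2 and Bmp7 was not tested, and in RNA of whole cultures fewer cells of a type and less RNA per cell cannot be told apart.

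Most other genes of the pathway did not pass. A list of 105 further genes, sorted by role, had 104 on the array, of which 73 were tested by their brightest probe, and 1 rose, 2 fell and 70 did not pass. Both that fell were well above background in 4T1-A alone and entered the test through those arrays. That is 4.11 percent called, near the 5.02 percent of all genes tested by their brightest probe (2.46 percent higher and 2.56 percent lower), and the median difference of the list was 0.18 against 0.13 over those genes. Before adjustment, 13 of the 73 had a p under 0.05 with a higher level in 4T1-S and 8 with a lower one, against 27.2 percent of all genes in either direction. Counts of calls in this list moved with the processing, and none of the 3 calls passed with normexp background correction.

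**Figure D4:**
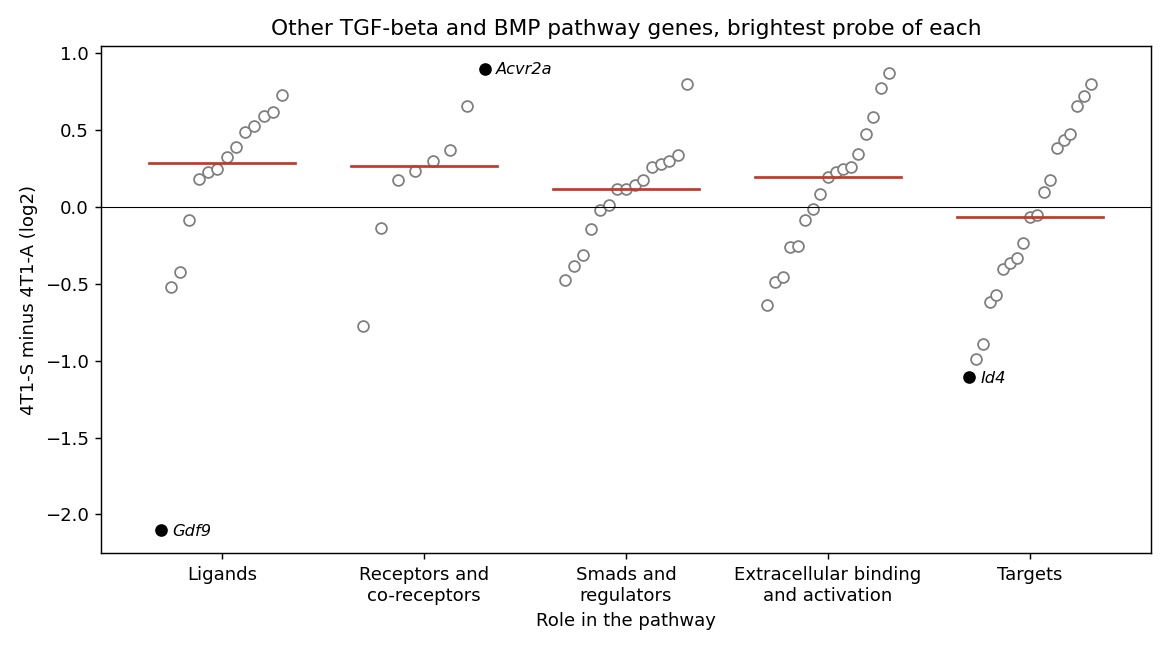
Difference between 4T1-S and 4T1-A (log2) of the 73 other pathway genes tested, by role, each by its brightest probe, with a red bar at the median of the role and filled, named points where the adjusted p was under 0.05. Acvr2a, Gdf9 and Id4 are the 3 filled points, and those of Gdf9 and Id4 are set against 4T1-S arrays not well above background.

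The list of 28 other ligands also holds Bmp1, which is named with them but encodes a protease that matures procollagens. Of these 28 genes, 14 were tested, 0 rose, 1 fell and 13 did not pass, with a median of 0.29. The one that fell was Gdf9, a growth factor best known from oocytes, with levels of 0.0220 and 0.0179 in 4T1-S, both too dim to be called well above background, and of 0.0943 and 0.0767 in 4T1-A. Its mean in 4T1-A was 1.49-fold above the lowest level well above background on the 4T1-S arrays. That is no lower bound, since some brighter probes on those arrays were not well above background. Gdf9 passed with adjusted p = 0.00189 by limma. It entered the test through 4T1-A alone, and its measured difference is no estimate of size. With normexp the difference was -0.24 and did not pass (adjusted p = 0.341 by limma). Bmp1 had levels of 48.9 and 45.3 in 4T1-S and of 31.4 and 33.7 in 4T1-A, and its difference of 0.53 ± 0.19 did not pass (adjusted p = 0.141). Its other probe gave 0.86 and did not pass, nor did the mean of its probes (0.69, adjusted p = 0.0558 by limma).

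Of 12 other receptors and co-receptors, 8 were tested, 1 rose, 0 fell and 7 did not pass, with a median of 0.27. Acvr2a, a type II receptor for activins, had levels of 0.127 and 0.135 in 4T1-S, against 0.0665 and 0.0740 in 4T1-A, a difference of 0.90 ± 0.19 (adjusted p = 0.0448 by limma). That call was lost in 10 of 16 alternatives, among them averaging its probes (0.35, adjusted p = 0.246) and leaving out replicate 1 of 4T1-S (0.141), replicate 2 of 4T1-S (0.190) or replicate 1 of 4T1-A (0.115). Eng, the TGF-beta co-receptor endoglin, had levels of 5.03 and 3.83 in 4T1-S and of 3.04 and 2.55 in 4T1-A and did not pass (0.66 ± 0.22, adjusted p = 0.127).

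None of the 15 tested Smads and Smad regulators passed with limma by its brightest probe, and at an unadjusted p under 0.05 there was 1, higher. A dimmer probe (A_52_P576886) of Smurf2, a ubiquitin ligase that acts on Smads and receptors, was lower and passed (-0.96 ± 0.20, adjusted p = 0.0390), while its brightest probe (-0.31) and another (-0.13) did not. The brightest, Smad4, the Smad shared by the TGF-beta and BMP branches, had levels of 20.8 and 29.4 in 4T1-S and of 18.6 and 20.7 in 4T1-A (0.34 ± 0.23, adjusted p = 0.398), and the mean of its probes gave -0.03. Tgif2, a repressor that binds Smads, was the one at unadjusted p under 0.05, with levels of 19.3 and 21.9 in 4T1-S against 12.8 and 10.9 in 4T1-A (0.80 ± 0.20, adjusted p = 0.0698), and it passed with an intensity trend and robust fitting (adjusted p = 0.0417) and in the fit of 1 mean value per gene (adjusted p = 0.0480).

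None of the 17 tested extracellular binding proteins and ligand activators passed with limma, and at an unadjusted p under 0.05 there were 3 higher and 1 lower. Ltbp3, which binds latent TGF-beta to the matrix, was the brightest, with levels of 28.9 and 38.2 in 4T1-S and of 35.9 and 57.5 in 4T1-A (-0.45 ± 0.28, adjusted p = 0.342). The highest difference was that of Nbl1, a secreted BMP antagonist, at 8.25 and 13.0 in 4T1-S against 4.98 and 6.39 in 4T1-A (0.87 ± 0.27, adjusted p = 0.106). It was 0.55 without 4T1-S replicate 2 (adjusted p = 0.359), and it passed without 4T1-A replicate 2 (1.05, adjusted p = 0.0299).

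Among 22 other targets, 19 were tested, 0 rose, 1 fell and 18 did not pass, with a median of -0.07. At an unadjusted p under 0.05 there were 3 higher and 4 lower. Id4, an Id protein of mammary basal cells and other progenitors, fell. Its levels were 0.0646 and 0.0644 in 4T1-S, again too dim to be called well above background, against 0.137 and 0.141 in 4T1-A. The measured fold was 2.16 (adjusted p = 0.0186 by limma) and is no estimate of size, and with normexp the difference was -0.18. This probe too entered the test through 4T1-A alone. The other Id4 probe (A_51_P494430) did not pass (-0.57 ± 0.26, adjusted p = 0.215). The brighter probe did not pass when replicate 1 (adjusted p = 0.0909) or replicate 2 (0.110) of 4T1-S was left out, with normexp (adjusted p = 0.369) and when probes of all intensities were tested (0.0781).

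The related Id3 was at 7.35 and 7.11 in 4T1-S against 12.2 and 10.1 in 4T1-A (-0.62 ± 0.20, adjusted p = 0.117), and it passed with scaling to the median (adjusted p = 0.0437). Id2 was at 0.632 and 1.32 in 4T1-S against 1.33 and 2.46 in 4T1-A (-0.99 ± 0.40, adjusted p = 0.181). Leaving out single arrays moved it between -0.45 (without 4T1-S replicate 1, adjusted p = 0.537) and -1.52 (without 4T1-S replicate 2, adjusted p = 0.136), and it passed without 4T1-A replicate 1 (-1.43, adjusted p = 0.00892) but not without 4T1-A replicate 2 (-0.54, adjusted p = 0.344). The sub-lines nearly met for this probe, at 1.32 and 1.33. Its other probe (A_52_P240542) was -1.01 ± 0.21 and passed (adjusted p = 0.0405 by limma).

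Timp1, an inhibitor of metalloproteinases, was at 74.8 and 82.6 in 4T1-S against 51.1 and 48.5 in 4T1-A (0.66 ± 0.19, adjusted p = 0.0940), and it passed with an intensity trend and robust fitting (adjusted p = 0.0386).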

How the data were processed

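Total RNA was labelled with Cy3 and hybridised to one-colour Agilent arrays, read with Agilent Feature Extraction 9.1 per the submitters' processing notes. The deposited scanner files hold the processed intensity of each spot, background-corrected by the authors' scanner software per the file headers. The authors' deposited series table holds a linear ratio, found from its values to be that intensity over the array's 75th percentile, and it was used as an alternative. Here each deposited intensity was put on the log2 scale and the array's 75th percentile (405 and 498 in 4T1-S, 467.5 and 577 in 4T1-A) was subtracted. Control spots and outlier-flagged spots (5 to 9 per array) were left out and spots of a probe averaged. A probe was tested if both arrays of either sub-line showed it well above background. Differences were tested with limma 3.58.1 in R 4.3.3 (lmFit and eBayes, 2 residual and 5.49 prior degrees of freedom), adjusted over 23669 probes, and the code was tested on simulated data. The folds given for Gdf9 and Col1a1 set the brighter mean against the lowest signal well above background on the dimmer arrays. They are no lower bounds, since some brighter probes on those arrays were not well above background. The number of arrays limits the precision. Gene names follow the array design, updated for other genes through RefSeq (22951 probes by accession, 9768 by symbol, 8455 kept).

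All member probes are described. Of the other pathway genes, those named are up to 3 rises and 3 falls per role that passed, or the brightest tested where none passed. Bmp1, Eng, Tgif2, Nbl1, Id2, Id3, Smurf2 and Timp1 were named after their values were seen, and 1 further target is not reported here. Members and lists were chosen with earlier results of these data known. Promoter windows of 6 of 10 members were found in the RefSeq table. Alternatives changed the scaling, background correction, probe filter, fit, gene level, outlier spots, replicate block and arrays used.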

Additional observations from a re-analysis of the deposited data

How the results depend on the processing

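In 16 alternatives Tgfb2 and the first Bmp7 probe kept direction and call wherever they entered the fit, and the second Bmp7 probe lost its call when probes of all intensities were tested. The count of probes passing, 1085 (523 higher, 562 lower), was 542 after normexp (248 and 294), 302 without a background filter (96 and 206), 584 with probes above background on all 4 arrays (272 and 312), and 4672 with the replicate number as a block (3008 and 1664). With scaling to the median 224 were higher and 1162 lower, after quantile normalization 310 and 581, and cyclic loess gave 271 and 694. Leaving out single arrays gave 450 to 2292 probes, 141 to 1218 higher and 309 to 1074 lower, on the assumption that a lone array varies like the other sub-line: 540 without replicate 1 and 450 without replicate 2 of 4T1-S, 1133 without replicate 1 and 2292 without replicate 2 of 4T1-A. Of member probes 3 passed, and 5 with the replicate block, where Tgfb1 (adjusted p = 0.0386) and Inhba (0.0336) passed too. Leaving out single arrays gave 3 to 4. Of pathway genes 3 passed, against 0 with normexp, 1 with no filter, 0 with the filter on all 4 arrays, 5 with an intensity trend and robust fitting, 17 with the block, and 1 to 6 without single arrays. With the block Eng, Tgif2, Nbl1, Id2, Id3 and Timp1 passed too (adjusted p between 0.00856 and 0.0371 by limma). Same-numbered arrays deviated together (r = 0.443 across 23669 probes), but 2 pairs do not show that the numbers pair the arrays.

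Signs turned only in differences that did not pass. Scaling to the median gave Tgfb3 -0.042, Id1 -0.29 (A_51_P385786) and -0.081 (A_52_P533809), and cyclic loess gave the first Id1 probe -0.040. Normexp gave Tgfbr1 0.14 (A_51_P280137) and 0.0017 (A_52_P4538). Means of probes gave Tgfbr2 0.093 and Smad4 -0.026. Leaving out single arrays gave -0.30 to 0.31 and -0.41 to 0.83 for these Id1 probes, -0.53 to 0.36 and -0.30 to 0.27 for these Tgfbr1 probes, and -0.39 to 0.0039 for Tgfbr2 (A_52_P251403). The cause was not tested. Bmp4, below background, and dim probes near it carry the least information.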
